A study of Homo sapiens with 8 samples.

Results

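The nucleoporins build the nuclear pore, and the importins and exportins carry cargo through it. These genes were followed in Hs578T cells kept in high or low glucose. The members were taken by a rule on the gene symbol, set with earlier results of these data known. It takes the numbered NUP, KPNA, IPO, XPO and TNPO genes of the deposited table (without NUP62CL, pseudogenes and antisense or divergent transcripts). It adds KPNB1, XPOT, TPR, NDC1, POM121, AAAS, CSE1L, SEH1L and RANBP2. The rule found 51 of 21077 rows, of which 26 encode pore proteins and 25 encode transport receptors. A filter of at least 0.5 CPM (counts scaled to library size) in at least 2 libraries left 49 members among 15570 genes tested. The 2 members it removed were NUP210, a membrane ring protein seen only in high-glucose replicate 1 at 0.0867 CPM, which is the value of 1 count, and KPNA7, an importin alpha of the early embryo, which was at 0 in all 8 libraries. A count of 0 allows up to 3 counts, or 0.260 to 0.354 CPM in these libraries, by counting error alone.

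Hs578T is a line of human breast cancer cells that is negative for the estrogen receptor. Cells were held in flasks at a glucose level of 25 mM (high glucose, which models hyperglycemia) or, as controls, of 5 mM (low glucose), in each case for 48 hours, with 4 libraries in each group. By the methods of the study, both groups were first conditioned in low glucose and then kept without serum, and an osmotic control such as mannitol is not among the libraries used here. Nothing in the labels tells whether the replicates are separate cultures, and the p values then reflect only the spread among these 8 libraries, which may be technical. The question was how a high glucose level changes gene expression in breast cancer cells.

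The nuclear pore is a ring of stacked protein complexes set in the nuclear envelope. A Y-shaped scaffold lies on both faces, an inner ring lies between them, and proteins rich in phenylalanine-glycine (FG) repeats fill the channel and hold back large molecules. Importins and exportins are receptors that bind a transport signal on the cargo, pass the FG repeats, and load or release the cargo according to the small GTPase Ran, which is bound to GTP inside the nucleus and to GDP outside. Importin alpha proteins are adaptors: they recognize classical nuclear localization signals and bind importin beta (KPNB1), and the exportin CSE1L returns them to the cytoplasm.

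All values are deposited signal taken as CPM with TMM scaling, in bulk RNA, where a change in the amount of RNA per cell and a change in the makeup of the culture cannot be told apart. The libraries held an estimated 10244900 to 11956677 counts each, and 1 count was worth 0.0867 to 0.118 CPM. Fold changes are differences of log2(CPM + 1), high minus low glucose, and come out too small for genes of low level, and adjusted p values are from limma with Benjamini-Hochberg adjustment over all 15570 genes. Library pairs within a group differed by a chi-square per gene of 1.6 to 5.72, where sampling alone would give about 1, so no library was a copy of another. The mesenchymal genes VIM and FN1 were high in all 8 libraries, but not equal between the groups. VIM averaged 3733 CPM in high glucose and 8420 CPM in low glucose, and FN1 24880 and 42759 CPM. Of 6 genes expected in this line, 0 had a higher mean in high glucose, and the part of this in the results below was not tested. EPCAM was at 0 in all 8 libraries, and the estrogen receptor gene ESR1 did not pass 0.270 CPM. The epithelial keratin KRT8, also on the list of genes that should be low in this line, was present at 15.3 to 19.9 CPM in high glucose and 47.9 to 52.8 CPM in low glucose. The 11 proliferation genes of the study's score summed to 629 to 657 CPM in high glucose and 302 to 307 CPM in low glucose. The mean was higher in high glucose for 10 of the 11 and lower for CDC20. The part of this difference in the results below was not tested. The study also measured proliferation of this line by BrdU incorporation and reports that high glucose did not enhance it. Markers of other cells (PTPRC, PECAM1 and ALB) summed to 5.61 to 7.39 CPM in high glucose and 1.73 to 2.66 CPM in low glucose, most of it PECAM1, with ALB at or under 0.236 CPM in each library, and their part was not tested either.

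Pore proteins moved in both directions, while most transport receptors that passed the test were lower in the deposited scaling. Of the 49 members tested, 14 were higher and 24 were lower in high glucose at an adjusted p under 0.05, and 11 did not pass. Among the 25 pore proteins 10 were higher and 10 lower (median log2 fold change 0.02), and among the 24 receptors 4 were higher and 14 lower (median -0.24). In this comparison 72.9% of all genes tested were called, 35.7% higher and 37.2% lower, against 77.6% of the members, 28.6% higher and 49% lower, so the share of members called lay near that of all genes. The median over the 49 members was -0.14, and over all genes tested -0.00031. The counts of directions depend on the scaling: with the libraries set to the same total, which moves the median of all genes to 0.19, 23 members were higher and 18 lower, and of all genes called 62.8% were higher, where the deposited scaling gives 48.9%. Under that scaling the pore proteins stood at 14 higher and 7 lower and the receptors at 9 higher and 11 lower. Ratios between members within a library do not depend on a scaling factor per library, and several are given below. Their pairs were picked with results of these data known, so these ratios are descriptions.

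**Figure D1:**
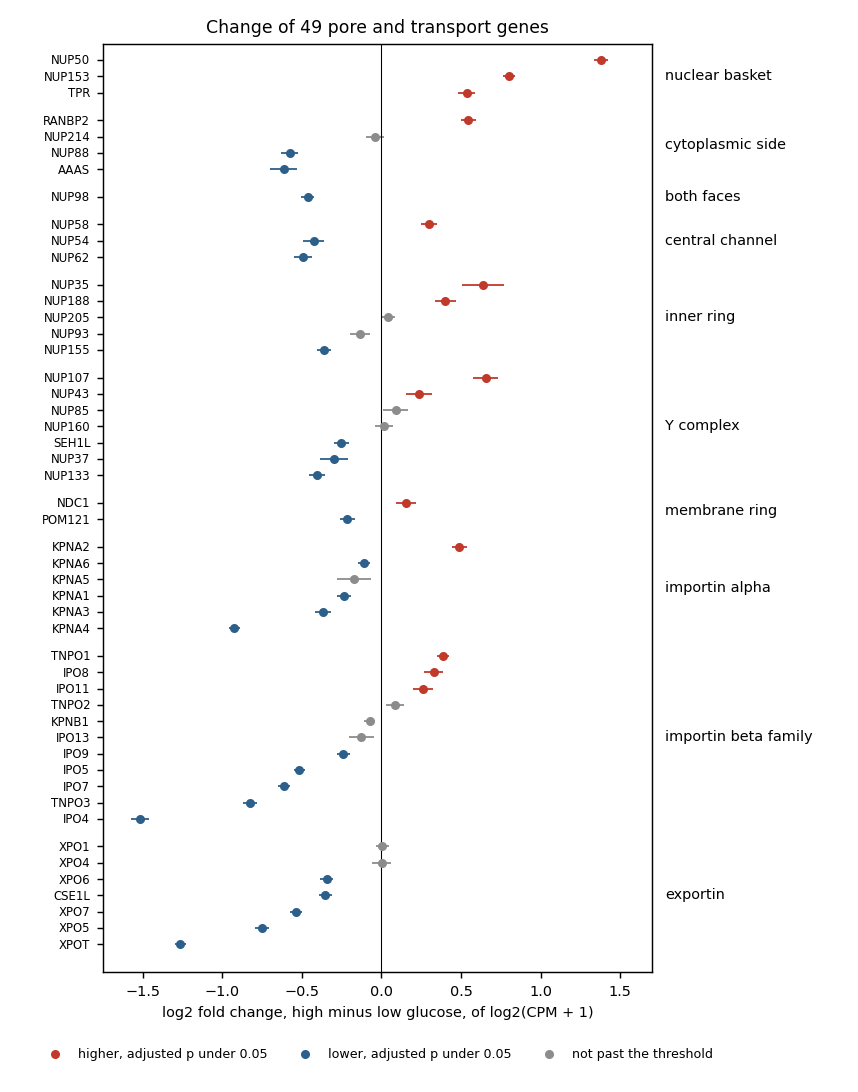
Log2 fold change (high minus low glucose, of log2(CPM + 1)) of the 49 members tested, grouped by their place in the pore or their class of receptor, with bars of 1 SE and the color giving the call at an adjusted p under 0.05. All 3 nuclear basket genes lie on the right, no exportin does so past the threshold, and NUP50 at 1.38 and IPO4 at -1.52 mark the ends.

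The groups did not overlap for 36 members, 12 with every high-glucose library above every low-glucose library and 24 with every one below, and this was so for 66.7% of all genes tested. A change of at least 2-fold was called for 3 members of 49 (NUP50, XPOT and IPO4), and for 17.1% of all genes tested. Of the 38 calls, 30 held under all 17 alternatives of scaling, filter, pseudocount, variance model, replicate block and left-out libraries, 12 higher and 18 lower. The 8 that did not were NUP43, NDC1, NUP37, SEH1L, KPNA1, KPNA6, IPO9 and POM121, all with log2 fold changes between -0.30 and 0.24.

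The nuclear basket is the set of filaments on the inner face of the pore. All 3 basket genes that the rule took were higher in high glucose, where 35.7% of all genes tested were higher. NUP50, a mobile basket protein that helps to release cargo from importin alpha, was at 143, 143, 153 and 151 CPM in the 4 high-glucose libraries and at 58.3, 56.6, 57.0 and 52.9 CPM in the 4 low-glucose libraries. The groups were far apart, with means of 148 ± 5.11 CPM in high glucose and 56.2 ± 2.30 CPM in low glucose (SD, n = 4 each). NUP50 rose by a log2 fold change of 1.38 ± 0.0454 (SE, adjusted p = 6.03e-13), the largest rise of any member.

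NUP153, the FG-repeat protein that anchors the basket, was at 209, 213, 217 and 217 CPM in high glucose and at 119.7, 120.4, 124 and 126 CPM in low glucose. Each group was tight and the gap between them was many times its spread (log2 fold change 0.80 ± 0.0360 SE, adjusted p = 1.90e-11). TPR, the coiled-coil protein that forms the filaments themselves, was at 214, 203, 232 and 239 CPM in high glucose and at 142, 151, 161 and 157 CPM in low glucose. TPR varied more among libraries than NUP153 did, and still all 4 high-glucose values lay above all 4 low-glucose values (0.53 ± 0.0539 SE, adjusted p = 2.57e-07). Per kilobase of transcript, the 3 basket genes summed to 87.2 ± 3.22 CPM per kb in high glucose and 47.1 ± 1.03 in low glucose, and with the libraries set to the same total to 85.0 ± 3.72 and 38.7 ± 1.12. The increase was not even: the share of NUP50 in this sum was 32.9% ± 0.204 in high glucose and 23.2% ± 1.3 in low glucose, and that of TPR was 26.4% ± 1.08 in high glucose and 33.7% ± 1.14 in low glucose. Under each scaling tried the 3 genes were higher.

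The promoters of these 3 genes are shown because they are the basket genes on the list and each of them rose. Each line is 250 bases before a transcription start from RefSeq (GRCh38.p14), read 5′ to 3′ on the strand of the gene, and capitals mark any of 6 motifs on either strand: CCGGAA (the ETS core), CACGTG (the E-box), CCAAT (the CCAAT box), GCATGCGC (the NRF1 core), TGATGNAA (the C/EBP-ATF element) and TTTGAA (the cell cycle homology region), with overlapping matches joined.
NUP50 (chr22:45163675-45163924, plus strand): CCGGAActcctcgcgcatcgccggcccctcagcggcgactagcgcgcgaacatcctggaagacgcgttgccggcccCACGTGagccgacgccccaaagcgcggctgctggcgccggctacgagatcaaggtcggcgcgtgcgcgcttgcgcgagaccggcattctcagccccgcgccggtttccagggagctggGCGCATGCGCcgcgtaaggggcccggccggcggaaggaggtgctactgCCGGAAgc
NUP153 (chr6:17706926-17707175, minus strand): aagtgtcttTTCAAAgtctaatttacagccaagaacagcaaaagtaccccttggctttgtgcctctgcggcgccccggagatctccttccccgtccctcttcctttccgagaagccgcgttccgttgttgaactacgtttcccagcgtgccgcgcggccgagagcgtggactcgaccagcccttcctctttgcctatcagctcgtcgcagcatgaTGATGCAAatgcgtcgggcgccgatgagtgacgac
TPR (chr1:186375254-186375503, minus strand): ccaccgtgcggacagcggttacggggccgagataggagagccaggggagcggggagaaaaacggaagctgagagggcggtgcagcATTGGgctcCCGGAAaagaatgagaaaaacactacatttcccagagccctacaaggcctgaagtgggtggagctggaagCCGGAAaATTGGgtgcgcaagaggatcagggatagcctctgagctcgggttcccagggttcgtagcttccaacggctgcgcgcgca
They have little in common by these letters. NUP50 holds ETS cores at the 5′ end and close to the start, an E-box and a palindromic NRF1 stretch read on both strands. NUP153 holds none of these and has instead a cell cycle homology region and the C/EBP-ATF element, the sole such element among the members. TPR holds ETS cores and CCAAT boxes side by side. NUP50 has a second annotated window, downstream of this one, in which none of the 6 motifs was found. The gene itself spans 45163925 to 45188017 on chromosome 22, NUP153 spans 17615037 to 17706925 on chromosome 6 and TPR spans 186311652 to 186375253 on chromosome 1 by RefSeq, and each value is the sum over the gene.

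Over the 45 members with an entry, the ETS core was found for 20 (44.4%), against 29.3% of the genes tested that have an entry and 14.5% of all windows of this length. It stood before 6 of 13 members that were higher and 10 of 22 that were lower. The CCAAT box was found for 42.2% of members, against 41.6% of genes tested and 32.0% of all windows. The E-box was found for 15.6% of members, against 11.0% of genes tested and 6.34% of all windows, and the NRF1 core for 8.89% of members, against 5.66% of genes tested and 2.63% of all windows. The cell cycle homology region was found for 10 members (22.2%), against 12.2% of genes tested and 13.3% of all windows, and the C/EBP-ATF element for 1 member (2.22%), against 2.48% of genes tested and 3.14% of all windows. By direction, the CCAAT box stood before 5 of 13 higher and 8 of 22 lower members, and the E-box before 2 and 3. The NRF1 core stood before 3 and 1, the cell cycle homology region before 5 and 3, and the C/EBP-ATF element before 1 and 0. These splits were not tested. A match is a description of letters and not evidence of a bound site.

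On the cytoplasmic side of the pore the members moved apart. RANBP2, the giant protein of the cytoplasmic filaments that binds Ran and acts as a SUMO ligase, was at 196, 194, 199 and 215 CPM in high glucose and at 141, 127, 140.1 and 141 CPM in low glucose. No high-glucose library came near the low-glucose range (log2 fold change 0.55 ± 0.0461 SE, adjusted p = 3.18e-08). RANBP2 has near-identical RGPD copies that can share its reads, and RGPD5 varied widely, at 17.5 ± 6.26 CPM in high glucose and 18.7 ± 11.6 CPM in low glucose (SD, n = 4 each). AAAS, the WD-repeat protein ALADIN that is mutated in triple A syndrome, was at 18.0, 21.0, 19.6 and 15.9 CPM in high glucose and at 29.9, 30.4, 28.7 and 26.8 CPM in low glucose. It fell, again without overlap (-0.61 ± 0.0865 SE, adjusted p = 1.06e-05). NUP88 and NUP214 form one subcomplex on this face, and their results differed: NUP88 averaged 57.8 ± 3.14 CPM in high glucose and 86.7 ± 4.06 CPM in low glucose (-0.58, adjusted p = 6.79e-08), while NUP214 averaged 69.3 ± 3.82 CPM in high glucose and 71.5 ± 5.04 CPM in low glucose (-0.04, adjusted p = 0.528), with its sign depending on the scaling.

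NUP98, an FG-repeat protein found on both faces of the pore and also within the nucleus, was at 213, 211, 211 and 225 CPM in high glucose and at 313, 282, 295 and 300.2 CPM in low glucose. It fell by 0.46 on the log2 scale (SE 0.0394, adjusted p = 3.36e-08). The same gene also encodes the scaffold protein NUP96, made by cleavage of a joint precursor, so the value counts both. Against NUP98 within each library, the basket genes shifted strongly: the log2 ratio of NUP153 to NUP98 averaged -0.01 ± 0.0409 in high glucose and -1.28 ± 0.0717 in low glucose, and that of NUP50 to NUP98 averaged -0.54 ± 0.0494 in high glucose and -2.40 ± 0.0795 in low glucose (SD, n = 4 each). NUP153 and NUP98 RNA were thus at about the same CPM in high glucose, and NUP98 was well above NUP153 in low glucose.

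The 3 proteins of the central channel form one trimer, and their RNAs did not move as one. NUP58 was at 77.6, 75.0, 85.0 and 79.8 CPM in high glucose and at 61.4, 67.1, 64.8 and 63.4 CPM in low glucose, a rise without overlap (log2 fold change 0.30 ± 0.0506 SE, adjusted p = 6.69e-05). NUP62, the defining FG protein of the trimer, was at 71.2, 73.9, 71.9 and 61.8 CPM in high glucose and at 99.7, 98.8, 100.4 and 94.4 CPM in low glucose, a fall without overlap (-0.49 ± 0.0550 SE, adjusted p = 8.14e-07). NUP54 fell by a like amount (-0.43, adjusted p = 2.23e-05), averaging 39.7 ± 3.07 CPM in high glucose and 53.7 ± 3.30 CPM in low glucose. The log2 ratio of NUP54 to NUP62 was close in both groups, -0.81 ± 0.222 in high glucose and -0.87 ± 0.0913 in low glucose, whereas that of NUP58 to NUP62 was 0.19 ± 0.150 in high glucose and -0.62 ± 0.0644 in low glucose. NUP62 was thus the more abundant RNA of that pair in low glucose and NUP58 in high glucose, by CPM and not per length. The NUP62 span of RefSeq overlaps ATF5 by 599 bases and IL4I1 over its whole length, and ATF5, a stress-response transcription factor, rose (1.38, adjusted p = 8.63e-11). A stranded kit is named only for related libraries, and whether strand was used in counting is not given in the sources used here, and without it reads of overlapping genes cannot be told apart.

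Of the 9 pore proteins with FG repeats on the list, 4 were higher (NUP50, NUP153, NUP58 and RANBP2), 4 were lower (NUP98, NUP62, NUP54 and POM121) and NUP214 did not pass. The rule took these 9 by symbol and not by this property, and over all genes tested 35.7% were higher and 37.2% lower.

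**Figure D2:**
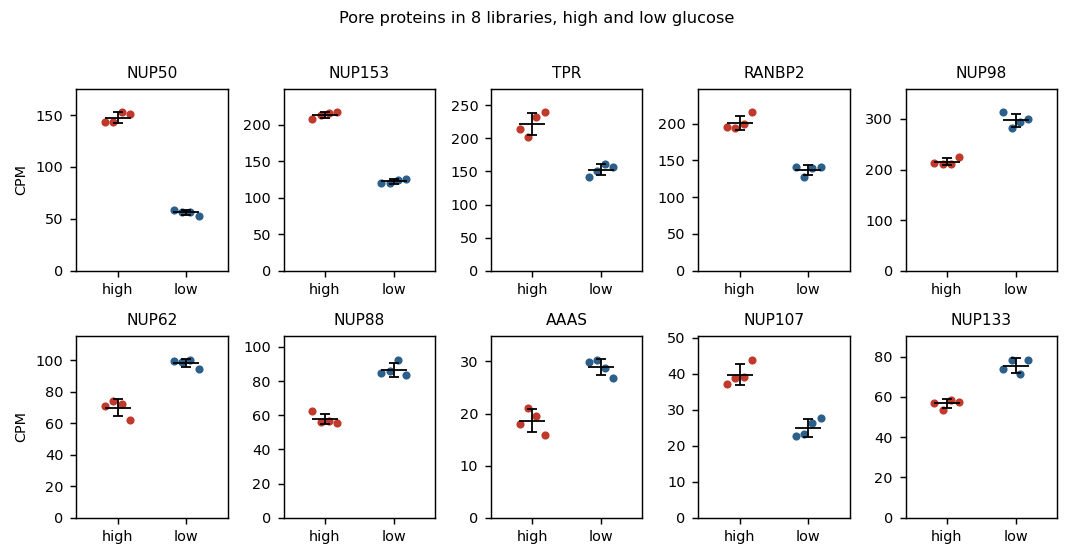
CPM of 10 pore proteins in each library, with high glucose on the left and low glucose on the right of each panel. Points are libraries and bars are mean ± SD of 4, and in no panel do the groups overlap: NUP50 sits at 143 to 153 CPM in high glucose and 52.9 to 58.3 CPM in low glucose.

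In the inner ring, which supports the central channel, 2 of 5 genes were higher and 1 was lower. Over all genes tested, 35.7% were higher and 37.2% lower. NUP35, a membrane-binding protein, was at 17.2, 17.5, 17.7 and 19.2 CPM in high glucose and at 10.7, 8.10, 14.8 and 11.8 CPM in low glucose. The low-glucose values were widely spread but stayed under all those of high glucose (log2 fold change 0.64 ± 0.134 SE, adjusted p = 5.06e-04). NUP155 was at 77.8, 77.3, 74.7 and 75.9 CPM in high glucose and at 98.5, 94.8, 98.3 and 102 CPM in low glucose, lower without overlap (-0.36 ± 0.0421 SE, adjusted p = 1.35e-06). NUP188 and NUP205 are large related scaffold proteins. NUP188 rose by 0.40 (adjusted p = 4.56e-05), and NUP205 had a log2 fold change of 0.04, with a 95% interval of -0.06 to 0.14, and was called higher with the libraries set to the same total (0.28) and after quantile normalization (0.14). NUP93, which links the ring to the channel, had -0.14 (adjusted p = 0.0663). It was called lower under the replicate block and without high-glucose replicate 1 or 2.

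The Y complex is the outer scaffold that lines both faces and also binds kinetochores in mitosis. Among its 7 genes tested, 2 were higher, 3 lower and 2 did not pass (median log2 fold change 0.02), beside 35.7% higher and 37.2% lower over all genes. NUP107 was at 37.2, 38.8, 39.1 and 44 CPM in high glucose and at 22.6, 23.2, 26.4 and 27.6 CPM in low glucose. NUP133, its direct neighbor in the stem of the Y, was at 57.2, 53.6, 58.7 and 57.6 CPM in high glucose and at 73.7, 78.6, 71.2 and 78.4 CPM in low glucose. The members of this pair moved in opposite directions, both without overlap (NUP107 0.65 ± 0.0776 SE, adjusted p = 1.62e-06, and NUP133 -0.40 ± 0.0508 SE, adjusted p = 3.13e-06). Their log2 ratio averaged -0.52 ± 0.106 in high glucose and -1.60 ± 0.159 in low glucose (SD, n = 4 each). NUP43 was also called higher (0.24, adjusted p = 0.0146), but low-glucose replicate 3 at 35.4 CPM lay within the high-glucose range, and the call was lost without high-glucose replicate 2 (0.19, adjusted p = 0.0532). SEH1L, which also serves the amino acid-sensing GATOR complex, fell by 0.25 (adjusted p = 1.49e-04) and NUP37 by 0.30 (adjusted p = 0.00565), and neither passed with the libraries set to the same total. NUP160 (0.02, adjusted p = 0.818) and NUP85 (0.09, adjusted p = 0.331) did not pass, but both were called higher with the libraries set to the same total (NUP160 at 0.26, adjusted p = 0.00106, and NUP85 at 0.32, adjusted p = 0.00159), and NUP85 also after quantile normalization (0.19, adjusted p = 0.0434).

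The membrane ring ties the pore to the nuclear envelope. NDC1 was at 46.5, 49.1, 48.9 and 54.4 CPM in high glucose and at 42.5, 43.7, 47.8 and 44.2 CPM in low glucose. The groups overlapped, and its small rise (log2 fold change 0.15, adjusted p = 0.0312) was lost when high-glucose replicate 4 (0.11, adjusted p = 0.107) or low-glucose replicate 1, 2 or 4 was left out. POM121, an FG-repeat membrane protein, was at 121, 114, 112 and 105 CPM in high glucose and at 135, 136, 128 and 125 CPM in low glucose, lower without overlap (-0.21, adjusted p = 8.22e-04), though not called and at 0.03 with the libraries set to the same total. Its near-identical copy POM121C was at 75.2 ± 5.51 CPM in high glucose and 122 ± 6.48 CPM in low glucose (-0.69, adjusted p = 2.03e-08), and reads may be split between the copies.

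Among the importin alpha adaptors the balance between KPNA2 and KPNA4 shifted. KPNA2 was at 171, 160.2, 172 and 162 CPM in high glucose and at 127, 112, 119.9 and 115 CPM in low glucose. It was the sole importin alpha that rose (log2 fold change 0.49 ± 0.0454 SE, adjusted p = 9.61e-08). KPNA4 was at 256, 257, 273 and 269 CPM in high glucose and at 514, 478, 498 and 516 CPM in low glucose, the largest fall of the class (-0.92 ± 0.0370 SE, adjusted p = 5.28e-12). The log2 ratio of KPNA2 to KPNA4 averaged -0.66 ± 0.0620 in high glucose and -2.08 ± 0.0631 in low glucose (SD, n = 4 each), a difference of 1.42 that no factor per library alters.

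Per kilobase of transcript, KPNA2 was the most abundant importin alpha RNA in both groups, with 47.5% ± 1.36 of the class in high glucose and 31.3% ± 0.935 in low glucose. KPNA4 held 16.6% ± 0.372 in high glucose and 29.3% ± 0.447 in low glucose, so the pair was nearly level in low glucose and far apart in high glucose. The class as a whole summed to 177 ± 3.37 CPM per kb in high glucose and 191 ± 6.22 in low glucose, an order that turned to 173 ± 3.94 and 157 ± 4.12 with the libraries set to the same total. KPNA3, the closest relative of KPNA4, fell by 0.37 (adjusted p = 5.68e-06). KPNA1 (-0.23, adjusted p = 2.53e-04) and KPNA6 (-0.11, adjusted p = 0.0113) were lower in the deposited scaling, but with the libraries set to the same total KPNA1 stood at 0.0095 and KPNA6 was called higher at 0.13. KPNA5 did not pass (-0.17, adjusted p = 0.152), but was called lower without high-glucose replicate 2. KPNA2 has processed pseudogenes that can share its reads.

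KPNA2 RNA is known to follow the cell cycle and to peak in G2 and M phase, and 10 of the 11 proliferation genes of the score, all but CDC20, had a higher mean in high glucose as well. Their part in its rise was not tested, and the study's BrdU assay showed no enhanced proliferation of this line in high glucose. In the 8 libraries the genes whose centered log2 values lay closest to those of KPNA2 were NASP, TMEM67, VKORC1L1, ADARB1 and NEDD9, with mean absolute differences of 0.029 to 0.037, and these points share only 2 groups, so the likeness is largely that of the group difference.

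**Figure D3:**
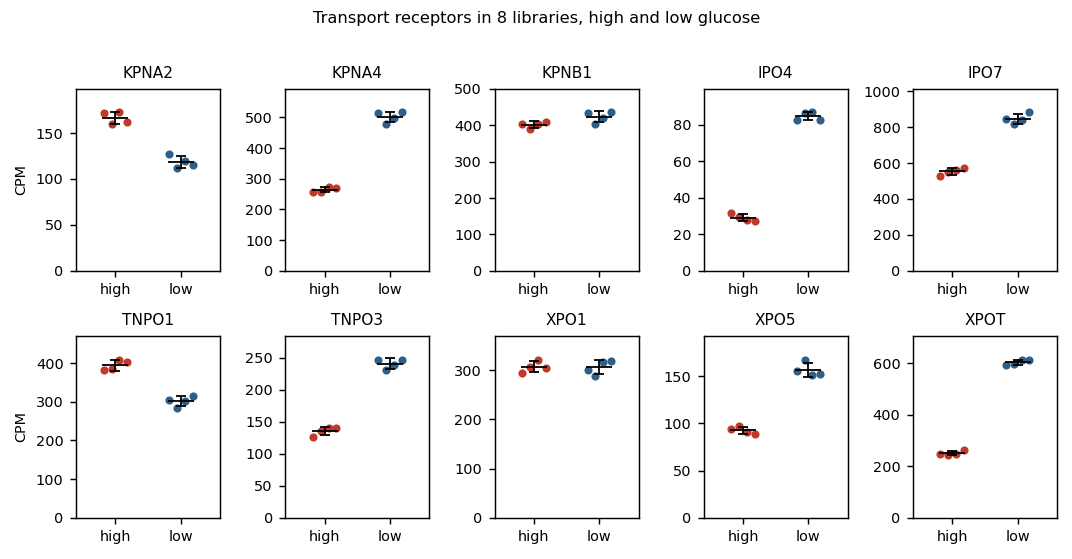
CPM of 10 transport receptors in each library, high glucose on the left and low glucose on the right of each panel, with points for libraries and bars for mean ± SD of 4. KPNB1 and XPO1 overlap between groups, and the other 8 do not, with XPOT at 243 to 264 CPM in high glucose and 595 to 615 CPM in low glucose.

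KPNB1, the importin beta that works with the alpha adaptors, was at 405, 389, 403 and 410.2 CPM in high glucose and at 434, 403, 421 and 435 CPM in low glucose. The groups overlapped, and the log2 fold change of -0.08 (95% interval -0.15 to 0.00058, adjusted p = 0.0687) did not pass. Its sign depends on the scaling: KPNB1 was higher by 0.17 (adjusted p = 3.78e-04) with the libraries set to the same total and by 0.10 after quantile normalization.

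The other receptors of the importin beta family, which bind their cargo without an adaptor, ranged from the largest fall of any member to clear rises. IPO4, an importer of histones and ribosomal proteins, was at 31.5, 29.4, 27.9 and 27.0 CPM in high glucose and at 82.7, 86.4, 86.7 and 82.8 CPM in low glucose. The means were 29.0 ± 1.98 CPM in high glucose and 84.6 ± 2.20 CPM in low glucose (SD, n = 4 each), a fall of 1.52 on the log2 scale (SE 0.0565, adjusted p = 2.36e-12). TNPO3, which imports serine- and arginine-rich splicing factors, averaged 136 ± 6.88 CPM in high glucose and 241 ± 7.95 CPM in low glucose (-0.83, adjusted p = 1.07e-10). IPO7, an importer of ribosomal proteins and the most abundant of the family by CPM and per length, averaged 553 ± 18.1 CPM in high glucose and 846 ± 27.3 CPM in low glucose (-0.61, adjusted p = 3.99e-10). IPO5 fell as well (-0.52, adjusted p = 2.07e-09), and IPO9, an importer of histones, was lower by 0.24 in the deposited scaling and at 0.0035 with the libraries set to the same total.

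TNPO1, the transportin that imports hnRNP A1 and other RNA-binding proteins, was at 381, 385, 409 and 403 CPM in high glucose and at 304, 285, 302 and 315 CPM in low glucose. It rose without overlap (log2 fold change 0.39 ± 0.0389 SE, adjusted p = 2.39e-07). Its near relative TNPO2 had 0.08 (adjusted p = 0.203, 95% interval -0.04 to 0.20), and was called higher with the libraries set to the same total (0.32) and after quantile normalization (0.16). The log2 ratio of TNPO1 to TNPO3 was 1.54 ± 0.0393 in high glucose and 0.32 ± 0.0226 in low glucose, a difference of 1.22. IPO8, the relative of IPO7, rose by 0.33 (adjusted p = 1.52e-04) where IPO7 fell, and IPO11 rose by 0.26 (adjusted p = 0.00180). IPO13, which carries cargo both ways, did not pass (-0.13, adjusted p = 0.153). Per length, TNPO1 took 13.5% ± 0.366 of the family in high glucose and 8.02% ± 0.176 in low glucose, and IPO4 took 2.41% ± 0.186 in high glucose and 5.47% ± 0.245 in low glucose. The family summed to 344 ± 3.22 CPM per kb in high glucose and 442 ± 9.07 in low glucose, and to 336 ± 5.71 and 364 ± 6.13 with the libraries set to the same total.

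No exportin was higher past the threshold in the deposited scaling, and 5 of 7 were lower. That is 71.4% of the class called, near the 72.9% over all genes tested (35.7% higher and 37.2% lower). XPOT, the exporter of mature tRNA, was at 249.6, 243, 248 and 264 CPM in high glucose and at 595, 597, 615 and 612 CPM in low glucose. The means of 251 ± 9.19 CPM in high glucose and 605 ± 10.2 CPM in low glucose lay more than 2-fold apart with little spread in either group (SD, n = 4 each). XPOT had the smallest adjusted p of any member (log2 fold change -1.26 ± 0.0348 SE, adjusted p = 8.83e-14). XPO5, the exporter of microRNA precursors, averaged 92.8 ± 3.46 CPM in high glucose and 157 ± 7.55 CPM in low glucose (-0.75, adjusted p = 5.08e-10). The RefSeq span of XPO5 overlaps the gene POLR1C by 40074 bases, and without strand use in counting reads of overlapping genes cannot be told apart. XPO7 fell by 0.54 (adjusted p = 3.85e-09), and XPO6, the exporter of actin, by 0.34 (adjusted p = 1.47e-06).

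CSE1L, which returns importin alpha to the cytoplasm, was at 179, 175, 191 and 185 CPM in high glucose and at 241, 229.8, 237 and 226 CPM in low glucose. It fell without overlap (log2 fold change -0.35 ± 0.0387 SE, adjusted p = 6.84e-07), while its cargo KPNA2 rose. The log2 ratio of CSE1L to KPNA2 averaged 0.13 ± 0.0516 in high glucose and 0.98 ± 0.0436 in low glucose. XPO1, the exporter of proteins with leucine-rich export signals, was at 295, 306, 322 and 305 CPM in high glucose and at 300.4, 289, 318 and 318 CPM in low glucose. The groups overlapped fully, and the log2 fold change of 0.0039 (adjusted p = 0.935) had a 95% interval of -0.08 to 0.09. XPO4 also stayed near 0 (0.00039, adjusted p = 0.996, 95% interval -0.13 to 0.13), but with the libraries set to the same total both XPO1 (0.25, adjusted p = 6.46e-05) and XPO4 (0.24, adjusted p = 0.00198) were called higher, and XPO1 was called higher after quantile normalization too (0.14, adjusted p = 0.00553).

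Against XPO1 within each library, XPOT was at a log2 ratio of -0.29 ± 0.0790 in high glucose and 0.98 ± 0.0463 in low glucose, so the order of their CPM was opposite in the groups. Per length, XPOT was the leading exportin RNA in low glucose with 28.2% ± 0.354 of the class and held 16.9% ± 0.502 in high glucose, where XPO1 led with 26.4% ± 0.781, against 18.2% ± 0.681 in low glucose. The class summed to 233 ± 3.41 CPM per kb in high glucose and 337 ± 3.42 in low glucose, and to 227 ± 4.8 and 277 ± 3.15 with the libraries set to the same total.

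**Figure D4:**
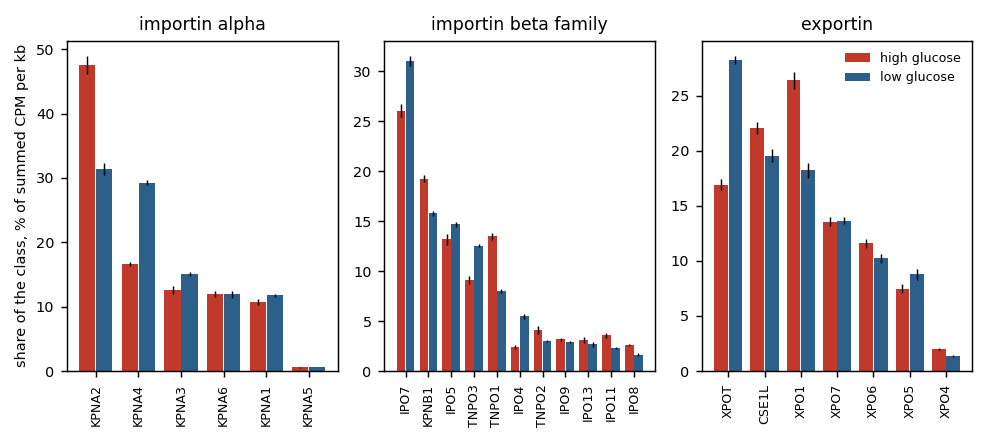
Share of each receptor in the summed CPM per kb of its class, with high glucose to the left of low glucose for each gene and bars of 1 SD over 4 libraries. KPNA2 takes 47.5% in high glucose and 31.3% in low glucose, and XPOT and XPO1 change places as the leading exportin.

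The promoters of the members with the largest falls, IPO4 and XPOT, are shown for comparison with those of the basket genes, with the same motifs in capitals (250 bases before the start, RefSeq, GRCh38.p14).
IPO4 (chr14:24188817-24189066, minus strand): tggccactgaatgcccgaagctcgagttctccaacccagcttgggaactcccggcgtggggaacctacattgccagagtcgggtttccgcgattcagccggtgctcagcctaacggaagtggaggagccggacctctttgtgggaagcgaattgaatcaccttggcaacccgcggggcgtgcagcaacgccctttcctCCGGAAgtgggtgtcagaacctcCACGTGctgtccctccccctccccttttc
XPOT (chr12:64404142-64404391, plus strand): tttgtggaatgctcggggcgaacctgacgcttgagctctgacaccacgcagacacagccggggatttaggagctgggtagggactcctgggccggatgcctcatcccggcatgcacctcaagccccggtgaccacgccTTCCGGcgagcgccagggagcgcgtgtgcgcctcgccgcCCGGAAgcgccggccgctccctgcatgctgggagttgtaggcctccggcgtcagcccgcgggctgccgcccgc
Both hold the ETS core, as NUP50 does, and IPO4 also holds an E-box. The ETS core therefore stood before the member with the largest rise and before both with the largest falls. IPO4 spans 24180219 to 24188816 on chromosome 14 and overlaps the gene REC8 by 705 bases, and XPOT spans 64404392 to 64451125 on chromosome 12. In all, 7 of 48 members checked overlap another protein-coding gene by RefSeq: NUP62, NUP88, XPO5, IPO11, IPO4, NUP188 and TPR.

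Genes of the same pathway outside the list were counted for context. Of 10 other pore genes tested, 5 were higher and 3 lower: SEC13, shared by the Y complex and the COPII coat, fell by 0.61 (209.6 ± 17.5 CPM in high glucose and 320.4 ± 13.2 CPM in low glucose, adjusted p = 4.30e-08), and the SUMO protease SENP2 (0.52, adjusted p = 1.15e-06) and the mRNA export factor RAE1 (0.43, adjusted p = 1.59e-06) rose. Of 12 genes of the Ran cycle, 2 were higher and 7 lower, a split that became 4 and 4 with the libraries set to the same total. RAN itself was at 260 ± 3.84 CPM in high glucose and 292 ± 13.0 CPM in low glucose (-0.17, adjusted p = 8.83e-04), its GTPase-activating protein RANGAP1 rose by 0.28 (adjusted p = 0.00395), and RCC1, the exchange factor that charges Ran with GTP in the nucleus, did not pass (-0.06, adjusted p = 0.257). RANBP3, a cofactor of XPO1, fell by 0.75 (adjusted p = 3.62e-09), and SNUPN, the adaptor that imports spliceosomal snRNPs, by 0.98 (adjusted p = 7.30e-08). Of 19 mRNA export genes, 3 were higher and 12 lower (median log2 fold change -0.32), and 6 and 7 with the libraries set to the same total. THOC5 of the THO complex fell by 1.10 (adjusted p = 6.42e-12) and POLDIP3 by 1.11 (adjusted p = 7.18e-12), while ZC3H11A, an export factor linked to stress, rose by 1.17 (adjusted p = 4.59e-12). These lists were chosen with results of these data known, and their counts are descriptions beside the 35.7% and 37.2% over all genes.

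**Figure D5:**
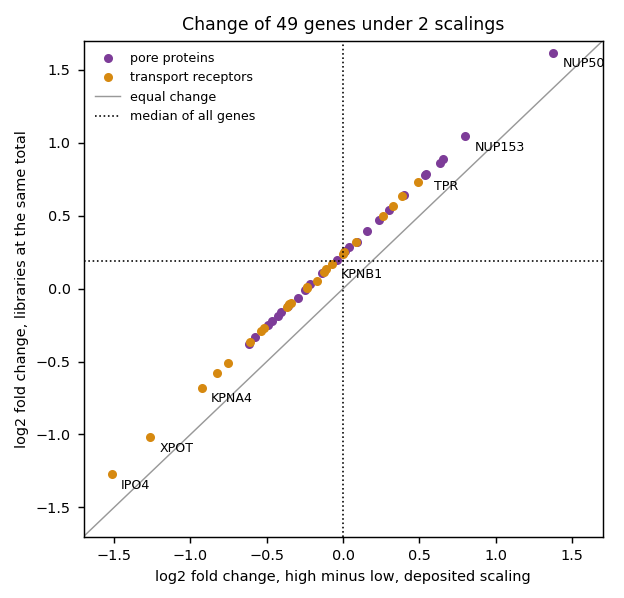
Log2 fold change (high minus low glucose) of the 49 members with the libraries set to the same total (vertical axis) against the deposited scaling (horizontal axis), with the solid line for equal change and dotted lines at the medians of all genes. Every point lies above the line by nearly the same amount, and those between NUP133 at -0.40 and 0, KPNB1 among them, move toward or past 0.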

How the data were processed

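RNA of Hs578T cells was sequenced in 8 libraries, 4 per glucose level, and groups were taken from the treatment labels. The authors deposited 1 table of normalized signal, taken as CPM with TMM factors: the submitters' notes name edgeR and hg38, the methods of the study describe such values for related libraries, and the columns sum to 1017015 to 1036274 in high glucose and 1205567 to 1229021 in low glucose. For related libraries the methods name a stranded mRNA kit and Tophat with an older build than hg38. For these libraries the aligner, the counting program and strand use: not given in the sources used here. Counts behind the values were fractional (71.2% to 73.8% whole within 0.005 of a count, below 50 counts), so no count model was used.

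The filter was 0.5 CPM or more in 2 or more libraries. The log2(CPM + 1) values were fitted with limma 3.58.1 under R 4.3.3 (variance trend on), high minus low glucose, no covariates, called at a Benjamini-Hochberg adjusted p under 0.05. Same-numbered libraries were not treated as pairs. Members and lists were chosen with earlier results of these data known. Values in every library are given for the largest called rise and fall of each role group and for RANBP2, TPR, NUP98, KPNB1, KPNA2, XPO1 and CSE1L. For each companion list, up to 4 called genes by smallest p were to be named. Not all of these are printed, and those that are have fold changes or group means only. NUP153, NUP54, NUP88, XPO5 and other members, and further genes of the companion lists, were picked with their values in view. Lengths are the exons of the canonical transcript. Gene spans and promoter windows are from RefSeq (GRCh38.p14), matched by symbol, with promoters for 45 of 51 members. Alternatives covered pseudocounts of 0.1 and 5, no filter, 1 CPM in 4 libraries, 3 scalings, an untrended variance, a replicate block and each library left out.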

Additional observations from a re-analysis of the deposited data

Results flagged for a closer look

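In 6 of 98 groups of 4 libraries, 1 library stood apart from the other 3 by Dixon's 95% criterion, where chance gives about 4.9. NUP37 was at 13.7 CPM in high-glucose replicate 4, below 14.5 to 14.6 CPM in the others, and NUP98 at 225 CPM in high-glucose replicate 4, above 211 to 213 CPM. KPNA6 was at 149.9 CPM in high-glucose replicate 3, below 157 to 158 CPM, and at 171 CPM in low-glucose replicate 2, above 167 CPM. NUP43 was at 35.4 CPM in low-glucose replicate 3, above 28.3 to 29.0 CPM, and this was the library that overlapped with high glucose. RANBP2 was at 127 CPM in low-glucose replicate 2, below 140.1 to 141 CPM, on the side away from high glucose.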

How the results depend on the processing

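With the libraries set to the same total, 23 members were higher, the median of the members was 0.10 and 9 members changed sign: NUP214 (0.20, adjusted p = 0.00492), KPNB1 (0.17), KPNA6 (0.13, adjusted p = 0.00391), IPO13 (0.11), NUP93 (0.10), KPNA5 (0.0538), POM121 (0.0288), KPNA1 (0.0095) and IPO9 (0.0035). The calls of IPO9, KPNA1, NUP37, POM121 and SEH1L were lost there, and KPNB1, NUP160, NUP205, NUP214, NUP85, TNPO2, XPO1 and XPO4 were newly called higher. After quantile normalization 19 members were higher, with KPNB1, NUP205, NUP85, TNPO2 and XPO1 gained, the median was -0.032, NUP214 stood at 0.0394 and KPNB1 at 0.0993, and after median ratio scaling the median was -0.10. KPNA6 lost its call under both. NDC1 lost its call without a variance trend. Relative to the median of all genes, the member median lay between -0.17 and -0.03 in all settings. With 1 library left out, the member median ranged from -0.17 to -0.0937, NUP160 from -0.0301 to 0.045, XPO1 from -0.0235 to 0.0234 and XPO4 from -0.0394 to 0.0286, and 13 to 14 members were higher and 24 to 26 lower. Some members gained a call with 1 library left out. NUP93 was called lower without high-glucose replicate 1 or 2, and KPNA5 without high-glucose replicate 2. KPNB1 was called lower without low-glucose replicate 2, and TNPO2 higher without high-glucose replicate 4. Pseudocounts and filters kept all 38 calls.

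The replicate numbers did not pair the libraries: deviations of same-numbered libraries correlated at -0.0267 to 0.112, and 2 of 4 high-glucose libraries correlated best with their own number. A replicate block gave 14 members higher and 26 lower, with KPNB1 and NUP93 gained.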

Other observations

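The nuclear envelope and lamina, in which the pores are set, held the largest single change among the companion lists. Of 16 genes tested, 8 were higher and 6 lower in high glucose (10 and 3 with the libraries set to the same total), where 35.7% of all genes tested were higher and 37.2% lower. LMNB1, the B-type lamin of the filament meshwork under the inner membrane, averaged 40.7 ± 3.33 CPM in high glucose and 4.8 ± 0.335 CPM in low glucose (SD, n = 4 each), a log2 fold change of 2.84 ± 0.0902 (SE, limma adjusted p = 4.08e-13). NEMP1, an inner membrane protein, rose to 95.4 ± 1.63 CPM in high glucose, against 26.8 ± 2.54 CPM in low glucose (1.80, adjusted p = 1.17e-12). The lamin B receptor LBR (1.37, adjusted p = 2.78e-10), TMPO, which encodes LAP2 (1.18, adjusted p = 1.75e-09), and the LEM-domain protein LEMD3 (0.98, adjusted p = 1.33e-09) also rose.

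EMD, the LEM-domain protein emerin, went the other way, at 57.5 ± 3.16 CPM in high glucose and 178 ± 6.58 CPM in low glucose (-1.61, adjusted p = 1.86e-13). LEMD2 fell by 0.92 (adjusted p = 9.29e-11) and BANF1, the chromatin protein that LEM domains bind, by 0.57 (adjusted p = 4.34e-08). LMNA, the A-type lamin, did not pass (-0.08, adjusted p = 0.320), at 528 ± 63.8 CPM in high glucose and 554 ± 22.9 CPM in low glucose. LMNB1 is known to be high in cycling cells, and the 11 proliferation genes of the score summed to 644 ± 12.1 CPM in high glucose and 304 ± 2.07 CPM in low glucose, with CDC20 alone having a lower mean in high glucose. Their part in this result was not tested, and by the study's BrdU assay high glucose did not enhance proliferation of this line.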
